A study of Mus musculus with 6 samples.

Results

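Metabotropic glutamate receptors were followed in the amygdala of mice on a zinc diet and mice on a control diet, using every probe set that the platform annotation assigns to Grm2, Grm3, Grm4, Grm5, Grm7 or Grm8 alone. The annotation gave 9 such probe sets for the 6 genes, out of 18193 genes that have a probe set with 1 symbol. The 6 animals were male 129S1/SvImJ (S1) mice, an inbred strain known for poor fear extinction, aged 8 to 10 weeks. There were 3 zinc diet mice (titled ZnR, replicates 3, 7 and 10) and 3 control diet mice (titled Cntrl, replicates 1, 9 and 11), and all 6 had undergone fear extinction training 2 h before the amygdala was taken. The labels do not give the zinc content of either diet. The name zinc diet follows the titles and does not mean that zinc was added. Each mouse gave 1 Affymetrix Mouse430_2 array, and each value below is a log2 probe set level.

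These receptors are G protein-coupled receptors for glutamate and act more slowly than the glutamate-gated ion channels. Group I receptors, here Grm5, sit mainly on postsynaptic membranes, where they couple through Gq to phospholipase C and calcium release. Group II (Grm2 and Grm3) and group III (Grm4, Grm7 and Grm8) receptors couple to Gi/o, lower cyclic AMP and, at many synapses, reduce transmitter release from the terminal. Receptors of all 3 groups are known to take part in fear learning and extinction in the amygdala.

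Grm8 and Grm4, both group III receptors, were higher in all 3 zinc diet mice than in any control diet mouse, by 1.54-fold and 1.42-fold. Grm7, the other group III receptor, differed little between the diets, as did Grm5 of group I. In group II, Grm3 lay slightly higher and Grm2 slightly lower in zinc diet mice, with the diets overlapping for both. No receptor passed the threshold of the test across all probe sets: 0 of the 8 receptor probe sets tested, as 0% of all 22877 probe sets tested, had a limma adjusted p (Benjamini-Hochberg) under 0.05.

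Promoter sequences from RefSeq (GRCm38.p6) are shown for Grm8 and Grm7, group III receptors on the same chromosome, the first with the diets apart and the other with the diets overlapping. Of the 6 genes, Grm2, Grm3, Grm7 and Grm8 have an entry in the sequence table. Each sequence is the 250 bases before the first start listed, 5′ to 3′ on the gene's own strand, chr6:28135147-28135396 (minus strand) for Grm8 and chr6:110645262-110645511 (plus strand) for Grm7. Capitals mark matches, on either strand, to the GC box GGGCGG, to the metal response element core spelled TGCACNC or TGCGCNC, or to the cyclic AMP response element TGACGTCA.
Grm8: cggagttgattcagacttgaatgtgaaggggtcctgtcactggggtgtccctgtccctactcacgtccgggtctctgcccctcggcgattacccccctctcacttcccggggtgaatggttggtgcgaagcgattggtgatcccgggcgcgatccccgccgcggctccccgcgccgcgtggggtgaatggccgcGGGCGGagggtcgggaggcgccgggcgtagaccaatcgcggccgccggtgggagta
Grm7: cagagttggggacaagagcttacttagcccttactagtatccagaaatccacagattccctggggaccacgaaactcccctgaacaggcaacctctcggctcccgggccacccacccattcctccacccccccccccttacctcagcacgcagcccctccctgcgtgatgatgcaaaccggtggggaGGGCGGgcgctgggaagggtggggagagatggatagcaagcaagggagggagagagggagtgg
Both windows held 1 GC box and no match to the other motifs, so no matches overlapped. A GC box was found in 32.7% of the 32851 promoter windows of this length, a metal response element core in 21.4%, and the cyclic AMP response element in 1.55%. The GC content was 68.4% for Grm8 and 62.0% for Grm7, against a median of 52.4% for all windows. Of the windows of Grm2 and Grm3, the Grm3 window held 1 metal response element core. Grm8 has 3 listed starts and Grm7 has 2, and the arrays, which read the 3′ end of transcripts, do not show which start was used.

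**Figure D1:**
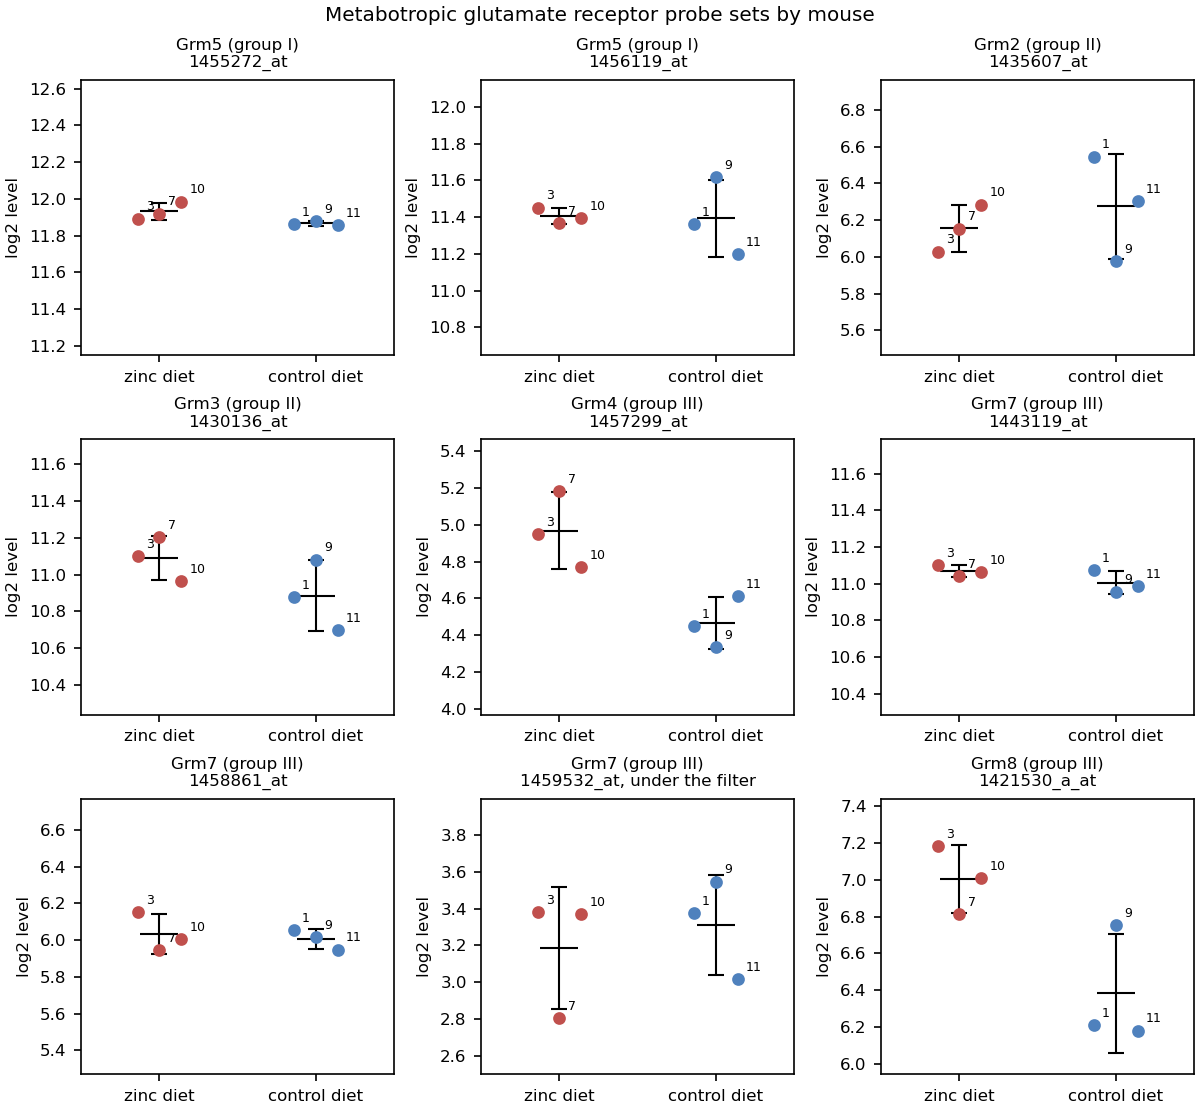
Log2 level of each of the 9 receptor probe sets (vertical axis, each panel spanning the same number of log2 units) in each mouse (points, numbered by replicate), with the mean and SD of each diet as bars. Zinc diet points lie above all control diet points for Grm8, Grm4 and the first Grm5 probe set, and the diets overlap in the other 6 panels.

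The group III receptors were considered first. Grm8, a presynaptic receptor with a high affinity for glutamate, is read by probe set 1421530_a_at, a design that can detect several transcripts of its gene. Its level was 7.18, 6.81 and 7.01 in zinc diet replicates 3, 7 and 10, against 6.21, 6.75 and 6.18 in control diet replicates 1, 9 and 11. The diets did not overlap, but control diet replicate 9 came within 0.1 of the lowest zinc diet mouse and stood well above the other control diet mice. Zinc diet mice averaged 7.003 ± 0.19 and control diet mice 6.38 ± 0.32 (SD, n = 3 each), and the log2 difference was 0.62 ± 0.18 (SE), with a 95% interval of 0.20 to 1.05 (limma, unadjusted p = 0.011, adjusted p = 0.66). Without control diet replicate 9 the difference was 0.81 ± 0.13 (SE). With any other single mouse left out it lay between 0.52 (without control diet replicate 11) and 0.72 (without zinc diet replicate 7).

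Grm4, a presynaptic receptor also known from the terminals of striatal projection neurons, is read by probe set 1457299_at. Its level was 4.95, 5.19 and 4.77 in zinc diet replicates 3, 7 and 10, against 4.45, 4.34 and 4.61 in control diet replicates 1, 9 and 11. No zinc diet mouse reached down to the control diet range. Zinc diet mice averaged 4.97 ± 0.21 and control diet mice 4.47 ± 0.14 (SD, n = 3 each), a log2 difference of 0.50 ± 0.13 (SE) with a 95% interval of 0.20 to 0.81 (limma, unadjusted p = 0.0063, adjusted p = 0.58). The control diet level was close to the filter of 4, below which probe sets were not tested, so the size of this fold is uncertain. The difference ranged from 0.39 to 0.60 when each mouse was left out in turn, lowest without zinc diet replicate 7, and was 0.44 without control diet replicate 9.

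Grm7, the low-affinity presynaptic receptor of the active zone, has 3 probe sets, of which 2 were tested. On 1443119_at the levels were 11.10, 11.04 and 11.06 in zinc diet replicates 3, 7 and 10, against 11.07, 10.96 and 10.99 in control diet replicates 1, 9 and 11. The diets overlapped, and all 6 mice lay close together. The difference was 0.06 ± 0.072 (SE, 95% interval -0.11 to 0.23, limma adjusted p = 0.92), and it was 0.04 without control diet replicate 9 and 0.10 without control diet replicate 1. Probe set 1458861_at gave 6.15, 5.94 and 6.003 in zinc diet mice and 6.06, 6.02 and 5.95 in control diet mice, with a difference of 0.03 ± 0.084 (SE, 95% interval -0.17 to 0.23, limma adjusted p = 0.98) that ran from -0.033 to 0.071 with 1 mouse left out. The intervals of both probe sets leave out a difference as large as the estimates for Grm4 and Grm8. The intervals of Grm4 and Grm8 begin at 0.20, however, so they overlap with those of Grm7. The third, 1459532_at, had a mean level under the filter and was not tested. Its levels ran from 2.80 to 3.38 in zinc diet mice and from 3.01 to 3.55 in control diet mice.

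The group II receptors had differences of opposite sign, neither past the threshold. Grm3, which is found on astrocytes as well as neurons, is read by 1430136_at and had levels of 11.10, 11.20 and 10.96 in zinc diet replicates 3, 7 and 10, against 10.88, 11.08 and 10.70 in control diet replicates 1, 9 and 11. Control diet replicate 9 was higher than zinc diet replicate 10, so the diets overlapped. The difference was 0.20 ± 0.12 (SE, 95% interval -0.08 to 0.49, limma adjusted p = 0.84). It was 0.30 without control diet replicate 9 (unadjusted p = 0.036 in limma) and 0.11 without control diet replicate 11, with adjusted p from 0.48 upwards over all its alternatives.

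Grm2, a presynaptic autoreceptor of glutamatergic terminals, is read by 1435607_at and had levels of 6.03, 6.15 and 6.28 in zinc diet replicates 3, 7 and 10. The control diet values were 6.54, 5.98 and 6.30 in replicates 1, 9 and 11, so the control diet mice enclosed all zinc diet mice. The difference was -0.12 ± 0.15 (SE, 95% interval -0.48 to 0.25, limma adjusted p = 0.93). Its sign rested on single control diet mice, since it was 0.02 without replicate 1 and -0.27 without replicate 9, and it was -0.06 without zinc diet replicate 3. A probe set annotated to both Gm28111 and Grm2 was not used here.

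Group I is represented by Grm5, the main Gq-coupled glutamate receptor of forebrain neurons, with 2 probe sets. On 1455272_at the levels were 11.89, 11.92 and 11.99 in zinc diet replicates 3, 7 and 10, against 11.86, 11.88 and 11.86 in control diet replicates 1, 9 and 11. The zinc diet values all lay above the control diet values, by a margin of about a hundredth of a log2 unit between the nearest mice. The difference was 0.07 ± 0.068 (SE, 95% interval -0.10 to 0.23, limma adjusted p = 0.91). It was 0.04 without zinc diet replicate 10, and also 0.04 as the mean of both Grm5 probe sets. The second, 1456119_at, gave 11.45, 11.37 and 11.39 in zinc diet mice and 11.36, 11.62 and 11.20 in control diet mice, with a difference of 0.01 ± 0.12 (SE, 95% interval -0.26 to 0.29, limma adjusted p = 0.99). Control diet mice were spread more widely than zinc diet mice on this probe set, and the diets overlapped. Its difference was 0.12 without control diet replicate 9.

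**Figure D2:**
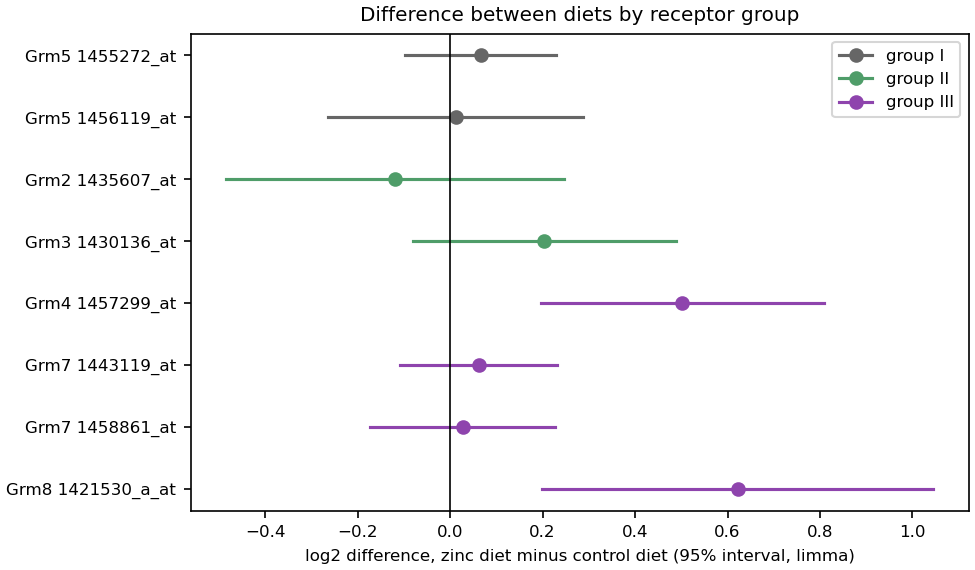
Log2 difference, zinc diet minus control diet (points), with its 95% interval from limma (lines) for the 8 receptor probe sets tested, coloured by receptor group. The intervals of Grm4 (0.20 to 0.81) and Grm8 (0.20 to 1.05) lie above 0 and the other 6 cross it.

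Counted over all receptors, 2 of the 8 probe sets tested had an unadjusted p under 0.05 with higher levels in zinc diet mice, those of Grm4 and Grm8, where 3.63% of all probe sets tested did so. None was lower at that p, where 2.75% of all probe sets were. Zinc diet mice lay above all control diet mice for 3 of the 8, those of Grm4, Grm8 and 1 of Grm5, against 6.66% of all probe sets tested, and below them for 0 of the 8, against 5.33%. The median log2 difference was 0.06 over the 8 receptor probe sets and 0.01 over all probe sets tested. By group it was 0.28 over the 4 tested probe sets of group III, 0.04 over the 2 of group II and 0.04 over the 2 of group I. The group III median is the midpoint between genes that differed unequally, since its 2 Grm7 probe sets were near 0.

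The differences between receptors were tested directly, as the within-array log ratio of 1 probe set a gene (that with the highest mean), for all 15 pairs of the 6 genes. An exact permutation test over the 6 mice (two-sided) was used, which cannot give a p under 0.1 with 3 mice against 3. The smallest exact p was 0.1 and the smallest after Benjamini-Hochberg adjustment over the 15 pairs was 0.38. The ratio separated the diets completely in 4 pairs, each with that smallest exact p of 0.1. All 4 were among the 8 pairs of Grm4 or Grm8 with another receptor. They share members, so they are not independent of each other or of the differences given above. The share of separated ratios among other gene pairs was not computed. The ratio of Grm4 to Grm7 was higher in zinc diet mice by 0.44 on the log2 scale, that of Grm4 to Grm5 by 0.44, that of Grm4 to Grm2 by 0.62 and that of Grm8 to Grm5 by 0.56. The ratio of Grm8 to Grm7 was higher by 0.56, but control diet replicate 9 lay among the zinc diet mice (exact p = 0.2). Between Grm8 and Grm4 the difference was 0.12 (exact p = 0.9), and the 6 pairs among Grm7, Grm3, Grm2 and Grm5 all overlapped.

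**Figure D3:**
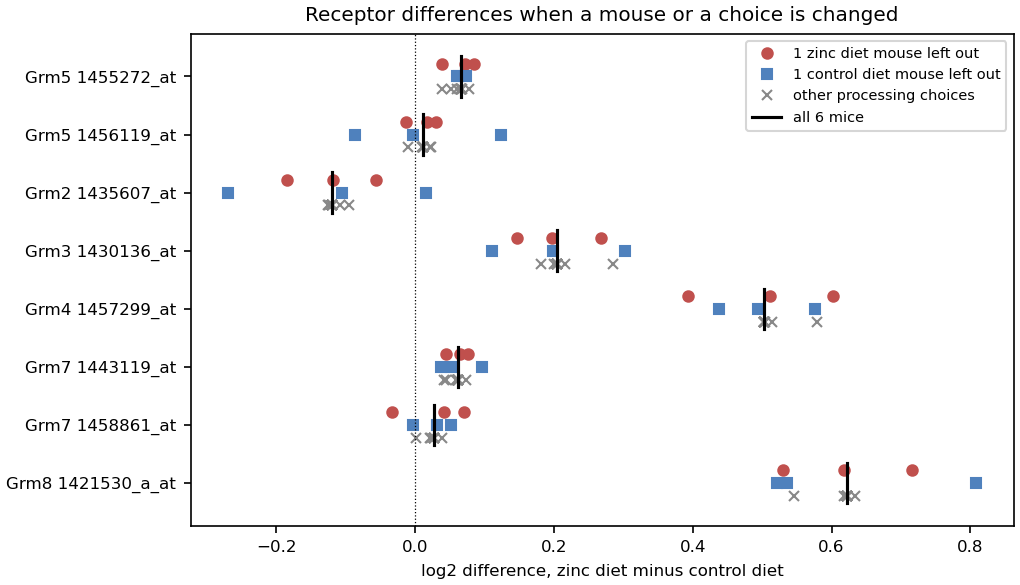
Log2 difference, zinc diet minus control diet, of each receptor probe set tested with all 6 mice (black bars), with 1 zinc diet mouse left out (red circles), with 1 control diet mouse left out (blue squares) and under other processing choices (grey crosses). Grm4 (0.39 to 0.60) and Grm8 (0.52 to 0.81) stayed above 0 throughout, whereas Grm2 and the second probe sets of Grm5 and Grm7 crossed 0. Where the diets do not overlap, as for Grm4 and Grm8, leaving out a mouse cannot change the sign.

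The signalling partners of the receptors were described from 7 lists of 132 genes, of which 96 were tested, with the most strongly detected probe set standing for each gene. None of the 96 passed the adjusted threshold. At an unadjusted p under 0.05, 5 were higher (5.21%, against 4.36% of all genes tested) and 2 were lower in zinc diet mice (2.08%, against 2.68%). The diets did not overlap for 11 genes that were higher (11.5%, against 8.12% of all genes tested) and 5 that were lower (5.21%, against 5.55%). The median log2 difference was 0.02 over the 96 genes and 0.01 over all genes tested. The shares at that p were close to those of all genes. Counts for the single lists below can be set against these same shares of all genes, and no list was tested as a set.

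Among the Gi/o proteins, beta-gamma subunits, potassium channels and presynaptic calcium channels that group II and III receptors act through, 1 of 17 tested genes was higher at that p and none was lower, with a median of -0.02. It was Gng7, a G protein gamma subunit known for its abundance in striatal neurons, with levels of 9.68, 9.90 and 9.75 in zinc diet replicates 3, 7 and 10, against 9.17, 9.26 and 9.41 in control diet replicates 1, 9 and 11. The diets did not overlap, and the log2 difference was 0.50 ± 0.098 (SE, limma unadjusted p = 0.0015, adjusted p = 0.41). Cacna1b, the N-type calcium channel pore subunit, was lower in all zinc diet mice by a small margin (-0.13 ± 0.078 SE, limma adjusted p = 0.84), and by -0.04 as the mean of its probe sets. The alpha subunit genes Gnai1, Gnai3 and Gnao1 gave -0.02, 0.01 and -0.04.

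Among receptor kinases, arrestins and regulators of G protein signalling, 1 of 13 tested genes was higher and none was lower, with a median of 0.02. It was Rgs8, which speeds the shut-off of Gi/o signals, with 9.07, 9.17 and 8.86 in zinc diet replicates 3, 7 and 10, against 8.28, 8.65 and 8.62 in control diet replicates 1, 9 and 11. The difference was 0.52 ± 0.13 (SE, limma unadjusted p = 0.0062, adjusted p = 0.58). Rgs2 (0.15 ± 0.072 SE) and Rgs4 (0.14 ± 0.083 SE), family members that also act on Gq, did not overlap between the diets either, though neither reached that unadjusted p, and Rgs4 was at 0.09 without zinc diet replicate 7.

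The Gq side of group I signalling (Gq subunits, phospholipase C, IP3 receptors, protein kinase C and TRPC channels) had 1 of 14 genes higher and none lower, with a median of -0.02. Prkcb, a protein kinase C isoform, differed by 0.19 ± 0.080 (SE, limma unadjusted p = 0.049, adjusted p = 0.78). Its unadjusted limma p ran from 0.0067 to 0.14 over the alternatives and was 0.058 with median centring, so this count depends on the processing. Plcb4 (0.26 ± 0.12 SE, 0.16 without control diet replicate 9), Plcb1 (0.11 ± 0.075 SE) and the channel gene Trpc1 (0.13 ± 0.067 SE, 0.04 as the mean of its probe sets) were next, all with zinc diet mice above control diet mice. Plcb1 stood at 0.06 without control diet replicate 1 and at 0.21 as the mean of its probe sets. Itpr2, an IP3 receptor, was the 1 gene of the list with all zinc diet mice below all control diet mice, at -0.06 ± 0.067 (SE). Gnaq and Gna11, the alpha subunits that the receptor contacts, gave -0.01 and 0.02.

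Scaffold proteins that hold the receptors at the synapse had 0 of 16 genes past that unadjusted p, with a median of 0.02. Homer1, whose long forms link group I receptors to IP3 receptors and whose short form is induced by activity, differed by 0.24 ± 0.11 (SE), with the diets overlapping. Ppp1cc, a protein phosphatase subunit that binds Grm7, differed by 0.17 ± 0.078 (SE) without overlap. Elfn1, a postsynaptic protein that recruits group III receptors across the cleft, gave 0.07 ± 0.15 (SE). Genes of receptor-dependent long-term depression and synaptic translation had 0 of 15 past that p and a median of 0.04, and Arc, the activity-induced gene of that list, gave 0.25 ± 0.46 (SE).

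Genes that supply and clear glutamate and N-acetylaspartylglutamate (NAAG), a peptide regarded as an agonist of Grm3, had 1 of 18 genes higher and 2 lower, with a median of 0.03. Of all genes tested, 4.36% were higher and 2.68% were lower at that unadjusted p. The 2 lower genes both act on NAAG, 1 in its synthesis and 1 in its breakdown. Rimklb, a NAAG synthetase, had levels of 8.23, 8.28 and 8.04 in zinc diet replicates 3, 7 and 10, against 8.44, 8.37 and 8.57 in control diet replicates 1, 9 and 11 (log2 difference -0.27 ± 0.096 SE, limma unadjusted p = 0.026, adjusted p = 0.73, and -0.18 as the mean of its probe sets). Folh1, the carboxypeptidase that breaks NAAG down, had 7.05, 6.79 and 6.97 in zinc diet mice against 7.29, 7.11 and 7.24 in control diet mice, in the same order of replicates (-0.27 ± 0.096 SE, limma unadjusted p = 0.027, adjusted p = 0.74). The diets did not overlap for either gene. A further NAAG synthetase gene, Rimkla, gave 0.14 ± 0.096 (SE) with overlap. Slc38a2, a neutral amino acid transporter that carries glutamine, was the higher one at 0.26 ± 0.081 (SE, limma unadjusted p = 0.016, adjusted p = 0.70), and 0.16 as the mean of its probe sets. Glud1, glutamate dehydrogenase, was at -0.10 ± 0.069 (SE) without overlap, and the glutamate transporters Slc1a2 and Slc1a3 gave 0.03 and 0.11.

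Of the other class C receptors, the structural family of the metabotropic glutamate receptors, 3 of 11 were tested. Gpr158 had levels of 6.62, 6.67 and 6.46 in zinc diet replicates 3, 7 and 10, against 6.37, 6.36 and 6.08 in control diet replicates 1, 9 and 11, without overlap (0.31 ± 0.11 SE, limma unadjusted p = 0.024, adjusted p = 0.73). The GABA-B receptor gene Gabbr1 gave -0.11 ± 0.078 (SE) and Gprc5b gave -0.08 ± 0.19 (SE).

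**Figure D4:**
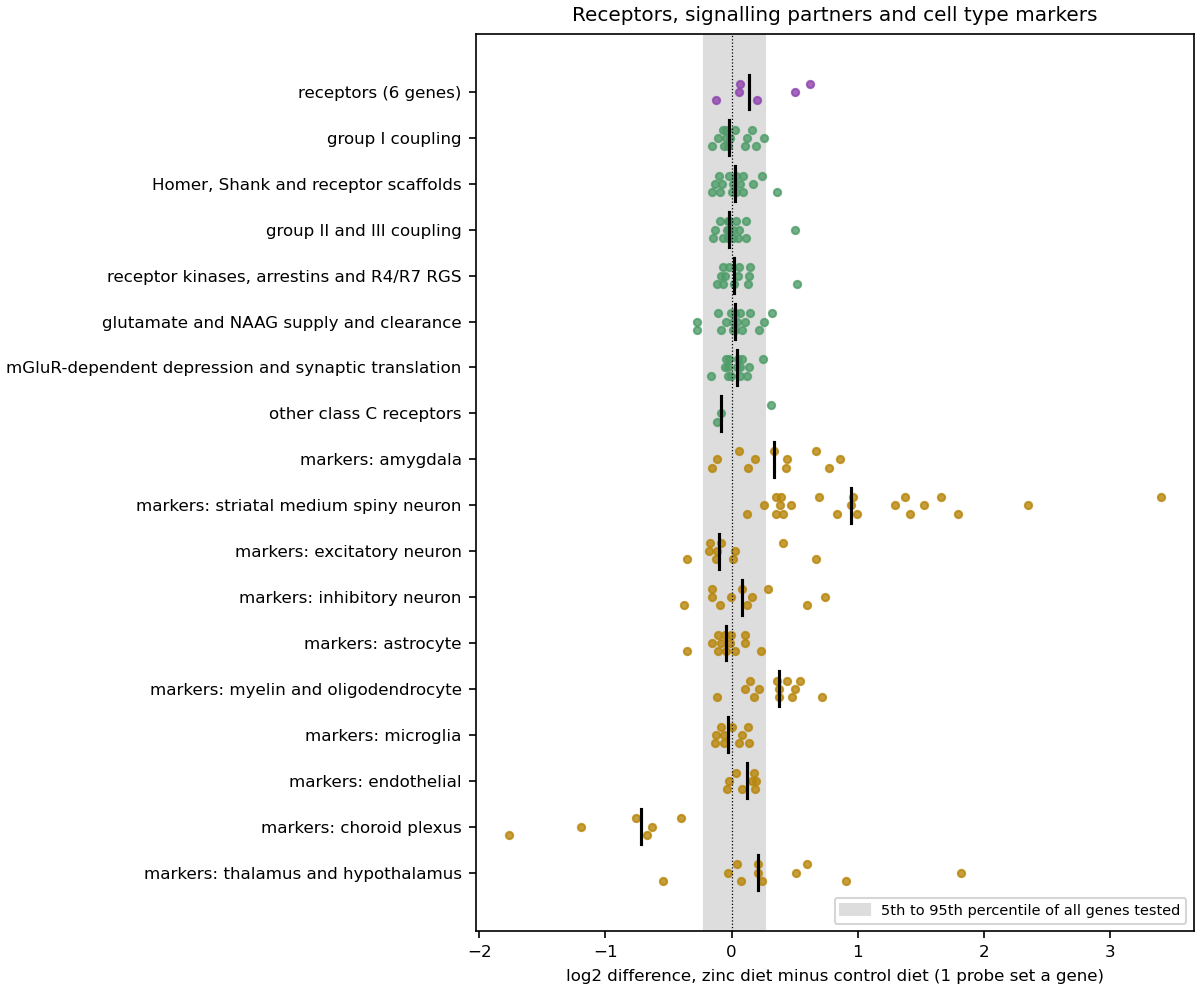
Log2 difference, zinc diet minus control diet, of the 6 receptor genes (purple), of the genes tested in 7 lists of signalling partners (green) and in 10 lists of cell type and region markers (gold), 1 point per gene, with the median of each list as a black bar. The grey band spans -0.22 to 0.26, the 5th to 95th percentile of all genes tested, and all 21 striatal medium spiny neuron markers tested lie above 0.

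Markers of other cell types and regions are given here as measured over the same contrast, and none of them passed the adjusted threshold in limma. Of 21 tested markers of striatal medium spiny neurons, all 21 had a higher mean in zinc diet mice, with a median log2 difference of 0.95. In 18 of them zinc diet mice lay above all control diet mice, against 8.12% of all genes tested. An unadjusted p under 0.05 with higher levels was reached by 18, against 4.36% of all genes tested. The mean log2 level of that list per mouse was 8.33 to 8.65 in zinc diet mice and 7.19 to 7.51 in control diet mice. The mouse with the highest Grm4 level, zinc diet replicate 7, was also highest for this list, whereas the highest Grm8 level was in zinc diet replicate 3. Zinc diet replicate 10 was lowest of its diet for both Grm4 and the list. Among control diet mice, replicate 11 was highest for both Grm4 (4.61) and the list mean (7.51). The lowest differed: Grm4 was lowest in replicate 9 (4.34) and the list mean in replicate 1 (7.19). Drd2, a defining marker, had levels of 5.71 to 6.04 in zinc diet mice and 3.58 to 4.47 in control diet mice, and Serpina9 was the 1 marker of the list with a probe set that was not tested. The part of these neurons in the differences of Grm4, Grm8 and Gng7 was not tested. In dissected tissue, more cells of a type and more RNA per cell cannot be told apart.

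All 11 amygdala markers that had a probe set passed the filter, which does not by itself show that they were detected. Of the 11, 9 had a higher mean in zinc diet mice (median log2 difference 0.33). At an unadjusted p under 0.05, 5 were higher and none was lower, against 4.36% and 2.68% of all genes tested. Without overlap, 4 were higher, against 8.12% of all genes tested. The list mean was 9.48 to 9.61 in zinc diet mice and 9.09 to 9.31 in control diet mice. Inhibitory neuron markers did not overlap in their list mean, at 8.82 to 8.87 in zinc diet mice and 8.69 to 8.79 in control diet mice. Of the 11 inhibitory neuron markers, 6 had a higher mean in zinc diet mice. At an unadjusted p under 0.05, 1 was higher and 1 was lower, against 4.36% and 2.68% of all genes tested. Astrocyte markers, the list most relevant to Grm3, overlapped at 10.08 to 10.20 in zinc diet mice and 10.08 to 10.22 in control diet mice, with 4 of 13 higher. List means also overlapped for excitatory neurons (9.54 to 9.73 in zinc diet mice against 9.59 to 9.63 in control diet mice), myelin (8.55 to 9.25 in zinc diet mice against 8.24 to 8.70 in control diet mice), microglia (7.38 to 7.42 in zinc diet mice against 7.35 to 7.49 in control diet mice), endothelium (7.15 to 7.19 in zinc diet mice against 7.01 to 7.16 in control diet mice) and thalamus and hypothalamus (5.70 to 6.805 in zinc diet mice against 5.55 to 6.37 in control diet mice). Within these lists, 12 of 13 myelin markers had a higher mean in zinc diet mice, with a median log2 difference of 0.38. Of them 1, Ermn, was higher at an unadjusted p under 0.05, against 4.36% of all genes tested. Of 11 thalamus and hypothalamus markers, 9 had a higher mean in zinc diet mice (median 0.21). Zic1, Prkch and Lef1 were higher at that p (4.36% of all genes tested) and without overlap (8.12%). For excitatory neurons, 4 of 10 markers had a higher mean (median -0.10). At that p 2 were higher and 1 was lower, against 4.36% and 2.68% of all genes tested. Without overlap 1 was higher and 2 were lower, against 8.12% and 5.55%. For choroid plexus, 0 of 6 markers had a higher mean (median -0.71). At that p 1 was lower (2.68% of all genes tested), and 1 was lower without overlap (5.55%). The choroid plexus list mean was 5.48 to 6.13 in zinc diet mice and 6.12, 8.32 and 5.85 in control diet replicates 1, 9 and 11. Replicate 9, the control diet mouse with the highest Grm8 and Grm3 levels, thus stood apart on that list. The values of Grm8, Grm4, Grm3, Grm2, the first Grm7 probe set and the second Grm5 probe set without that mouse are given above, and those of the first Grm5 and second Grm7 probe sets were 0.07 and 0.03.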

How the data were processed

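The values are the log2 probe set levels in the table the authors deposited. The submitters' processing notes name GCRMA 2.28.0 and R 2.15.1 but say nothing of how they were used. That the scale is log2 follows from the range of the values, and centring and further steps are not given in the sources used here. Array medians ran from 4.04 to 4.09, and pairwise correlations over the probe sets tested from 0.991 to 0.996. Per the labels' protocols, 500 ng of RNA per mouse was labelled with a 3′ in vitro transcription kit. No detection calls were at hand, so a low level cannot be told from background, and precision is limited by 3 arrays per diet.

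Of 45101 probe sets, 64 control probe sets were left out. The platform annotation gave 1 symbol for 34945 of the rest, several for 932 and none for 9160. Probe sets with a mean log2 level of at least 4 over all 6 arrays were tested (22877, with 11221 named genes), by two-sided moderated tests in limma 3.58.1 under R 4.3.3, using lmFit, eBayes and a design with diet alone, and Benjamini-Hochberg adjustment over all of them. SE and 95% intervals are limma's moderated ones. The fit was run on simulated data with larger changes put in than any receptor difference here. That run does not show how well differences of the receptors' size are found. The members, lists and tests were chosen with earlier results of these data known. Genes named from the signalling lists were up to 4 per list with the smallest p among those whose diets did not overlap, and other genes, markers included, were chosen after their values were seen. Promoter sequences and their build come from the RefSeq tables. The alternatives were other filters, normalizations, variance models, array weights, probe set choices, the title number as a covariate, a floor at 4 and leaving out each mouse.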

Additional observations from a re-analysis of the deposited data

How the results depend on the processing

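None of the 8 receptor probe sets passed the adjusted threshold under any of the 16 alternatives. Grm4 and Grm8 kept their direction in all that tested them, from 0.39 to 0.60 and from 0.52 to 0.81. With the diets apart for both, leaving out a mouse could not change the sign. The unadjusted p of both stayed under 0.05 in limma. That count of 2, an analysis added after seeing the data, became 1 with a mean level of at least 6, which leaves Grm4 untested, and 3 with array weights and without control diet replicate 9, where Grm3 joined (unadjusted p = 0.045 and 0.036 in limma). The median over the receptors was 0.13 with 1 probe set a gene and 0.12 with a gene's probe sets averaged. Over all features, 2 passed with a mean level of at least 6, 3 with trend and robust settings, and 1 each with 1 probe set a gene, with probe sets averaged by gene and with the title number as a covariate. Of 123 receptor values, 7 changed sign: the second Grm5 probe set was at -0.0095 under quantile normalization and from -0.086 to 0.12 with a mouse left out, the second Grm7 probe set from -0.033 to 0.071 and Grm2, at -0.12 with all mice, from -0.27 to 0.015. The cause was not tested. None of 240 values of the 15 signalling genes changed sign. These genes were named because their diets did not overlap, so leaving out a mouse could not reverse them. No paired analysis was possible because the diets share no replicate number.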

Other observations

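Over the 6 arrays, the genes whose probe sets followed each receptor most closely were listed as a description (1 symbol, highest Pearson r, with the diets pooled). Tac1, the substance P precursor, followed Grm4 at r = 0.995 (n = 6), and at 0.994 or more with any mouse left out. It is itself among the striatal markers and was higher by 0.35 in zinc diet mice. Gpx1 followed Grm4 at 0.99, Ulk2 and Psma2 followed Grm8 at 0.99 and 0.98, and Rnf166 and Mrps21 followed Grm7 at 0.997 each. Clint1 and Actr3 followed Grm5 at 0.996 and 0.995, Taok2 and Nfkbiz followed Grm2 at 0.99 each, and Lyz1 and Brdt followed Grm3 at 0.997 and 0.988. With 6 arrays such values are common: 216 probe sets had r over 0.9 with Grm4 and 151 with Grm8.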
